A study of Homo sapiens with 2 samples.

Results

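The genes described here are the antisense RNAs of K562 cells: all genes whose symbol in the authors' deposited table ends in -AS and a number and that had at least 20 counts summed over both libraries. Of 316 genes so named, 209 passed this floor, among 25702 genes in the count files and 13391 at the same floor. They were chosen by their name and by this summed count. This rule did not use the ratio between the libraries, but it was set with earlier results of these data known. Near the floor, most of the summed count can come from 1 library, as for PCED1B-AS1 (4 counts with cabozantinib and 21 in DMSO). K562 is a human erythroid leukemia line that carries the BCR-ABL1 fusion. A culture kept for 48 h in 1 µM cabozantinib (XL184), a drug that blocks several tyrosine kinases, MET and AXL among them, was set against a culture kept for 48 h in the solvent DMSO; both were asynchronous and grown in RPMI with serum. Each group held 1 library, of 25505289 counts with cabozantinib and 25025243 counts in DMSO, so the differences below could not be checked against replicates and no p-value was computed. The gene named before -AS in the symbol, called the sense gene here, served for comparison only.

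Antisense RNAs are transcribed from the strand opposite to another gene. Some run through the exons of that gene, some start inside its introns, and some start beside its promoter and run away from it as divergent transcripts. Most are long non-coding RNAs that stay rare in the cell, and many of the short-lived ones are removed in the nucleus by the RNA exosome. For most of them no function is known, while a few hold snoRNA genes in their introns, act on their neighbour or bind microRNAs.

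Most of the 209 were rare. Their median was 154 counts over both libraries, against 1389 for all genes at the floor, and 31 of them had a single exon. Of 208 with a RefSeq entry, 204 were typed as long non-coding RNA. In the deposited annotation, which is on hg19, 97 shared exon bases with their sense gene on the opposite strand. In 29 the spans overlapped with no shared exon base. Another 63 lay head to head with the sense gene without overlap and with starts within 2 kb, 18 lay farther off on the opposite strand, and 2 (RPARP-AS1 and TRG-AS1) had no matched sense gene. The libraries were made with a strand-specific kit, per the labels' protocols, but whether the counting used strand was not given in the sources used here, and reads on exon bases shared by a pair may not have been told apart. Of 64 annotated genes lying wholly inside exons of opposite-strand genes, 2 reached 20 counts (3.12%), against 50.9% of 22223 genes with no exon overlap, which does not decide how strand was treated. None of the 209 lay wholly inside such exons, and 102 shared some exon bases with any opposite-strand gene. Near the floor, CIRBP-AS1 (15 counts with cabozantinib and 5 in DMSO), PTGES2-AS1 (9 with cabozantinib and 11 in DMSO) and TBC1D8-AS1 (7 with cabozantinib and 14 in DMSO) were just inside it. ATE1-AS1 and PRC1-AS1 (each 5 with cabozantinib and 14 in DMSO) and SMC5-AS1 (11 with cabozantinib and 8 in DMSO) were just outside.

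The erythroid markers GATA1, KLF1, TFRC, HBG1, HBE1 and TAL1 held 7165 to 235592 counts each with cabozantinib and 3217 to 80131 in DMSO. T cell, B cell and fibroblast markers held 0 to 63 counts with cabozantinib and 0 to 247 in DMSO, the highest in DMSO being CD3D (59 with cabozantinib and 247 in DMSO). The other T cell markers CD3E, CD3G and CD2 held 2 to 7 counts with cabozantinib and 1 to 9 in DMSO, and the part of such cells in the results was not tested. Of the epithelial markers CDH1 had 1 count in each library, while EPCAM had 2133 counts with cabozantinib and 1815 in DMSO, and KRT19 had 2172 with cabozantinib and 1633 in DMSO. In bulk RNA, fewer cells with an RNA and less of it per cell cannot be told apart.

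Promoter windows of RefSeq (GRCh38.p14, 250 bases before to 50 after each start, coding-strand sense of the antisense RNA) are shown for the antisense RNAs on which the results turn: DLGAP1-AS2 and DLGAP1-AS1, which lie beside each other and were both far lower with cabozantinib, SLC25A21-AS1 and PRKAR2A-AS1, which were lower beside a sense gene that was not called, and PRKCZ-AS1, which was higher. Capitals mark matches, on either strand, to 6 motifs that are spelled out with their shares after the sequences. The DLGAP1-AS2 window is chr18:3603487-3603786 on the plus strand and that of DLGAP1-AS1 is chr18:3593864-3594163 on the plus strand. SLC25A21-AS1 is read from chr14:37171776-37172075 on the plus strand, PRKCZ-AS1 from chr1:2183826-2184125 on the minus strand, and PRKAR2A-AS1 from chr3:48847847-48847986 on the plus strand, which is the 140 bases of its window outside untranslated exons.
DLGAP1-AS2: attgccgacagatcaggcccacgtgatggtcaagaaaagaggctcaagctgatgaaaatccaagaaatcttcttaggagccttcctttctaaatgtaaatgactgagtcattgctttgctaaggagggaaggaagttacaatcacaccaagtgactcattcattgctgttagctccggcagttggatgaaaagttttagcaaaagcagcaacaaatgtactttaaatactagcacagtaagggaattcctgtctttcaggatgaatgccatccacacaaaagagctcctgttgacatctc
DLGAP1-AS1: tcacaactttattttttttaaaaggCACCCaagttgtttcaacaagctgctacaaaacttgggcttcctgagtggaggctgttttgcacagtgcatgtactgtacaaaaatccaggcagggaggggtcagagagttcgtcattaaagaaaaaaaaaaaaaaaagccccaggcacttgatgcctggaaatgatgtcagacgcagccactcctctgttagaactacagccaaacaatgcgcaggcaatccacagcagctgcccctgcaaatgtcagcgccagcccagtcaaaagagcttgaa
SLC25A21-AS1: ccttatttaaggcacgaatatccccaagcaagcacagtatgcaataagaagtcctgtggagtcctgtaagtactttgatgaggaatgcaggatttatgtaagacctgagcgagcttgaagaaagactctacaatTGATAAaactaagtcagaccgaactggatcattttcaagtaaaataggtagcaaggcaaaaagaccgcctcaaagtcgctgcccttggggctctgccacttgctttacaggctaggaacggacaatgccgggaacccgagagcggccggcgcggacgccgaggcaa
PRKAR2A-AS1: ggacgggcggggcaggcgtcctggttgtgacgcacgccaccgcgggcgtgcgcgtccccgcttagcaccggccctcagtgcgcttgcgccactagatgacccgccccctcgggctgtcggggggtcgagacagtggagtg
PRKCZ-AS1: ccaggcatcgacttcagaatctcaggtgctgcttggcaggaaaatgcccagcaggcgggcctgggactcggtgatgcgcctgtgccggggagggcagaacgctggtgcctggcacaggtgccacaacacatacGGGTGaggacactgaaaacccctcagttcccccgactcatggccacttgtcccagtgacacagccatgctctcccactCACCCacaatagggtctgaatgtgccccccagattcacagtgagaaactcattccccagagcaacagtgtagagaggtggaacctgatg
The window of DLGAP1-AS2 and the 140 bases shown for PRKAR2A-AS1 held none of these letters. The other 160 bases of the PRKAR2A-AS1 window were not marked, while the shares below rest on whole windows. The window of SLC25A21-AS1 held TGATAA, a core that GATA factors bind, at -116 to -111 from the start. That of DLGAP1-AS1 held CACCC, a core that KLF factors bind, at -225 to -221, and PRKCZ-AS1 held it at -117 to -113 (as GGGTG) and at -39 to -35. CACCC stood in 63.5% of the 167 antisense windows in the table and in 58.9% of windows of all 27305 genes, and TGATAA in 3.59% and 7.76%. AGATAA, the other GATA core, stood in 4.19% of antisense windows and 10.5% of all. TTCNNNGAA, the letters STAT factors bind, stood in 8.38% and 7.88%, TGACGTCA (CRE) in 1.20% and 1.98%, and TGATGNAAT (an ATF4 composite) in 0 of 167 antisense windows and 1.02% of all. Antisense windows had a median GC content of 64.7% and 25 CpG dinucleotides, against 58.3% and 14 over all genes. The motifs were counted separately, and a match is letters in a window, not a bound site.

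With cabozantinib, antisense RNAs were more often lower than higher, as were other rare genes. A gene was called when its ratio, cabozantinib over DMSO after TMM scaling, was at least 1.5-fold and the exact 95% interval of the ratio of its 2 counts left out no change. By that rule 13 of 209 antisense RNAs (6.22%) were higher and 48 (23.0%) were lower, beside 8.01% higher and 12.3% lower among all 13391 genes at the floor. These intervals reflect the counting error alone. Coding genes were called higher in 7.25% and lower in 11.8%. At 2-fold, 5 antisense RNAs were higher (2.39%) and 26 lower (12.4%), beside 2.92% higher and 6.17% lower among all genes. The median log2 ratio of the antisense RNAs was -0.21 (middle 50% from -0.59 to 0.15), against 0.00 for all genes and -0.10 for genes with 20 to under 1000 counts. A ratio below no change was seen in 131 antisense RNAs (62.7%), in 49.6% of all genes and in 57.0% of genes with 20 to under 1000 counts.

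**Figure D1:**
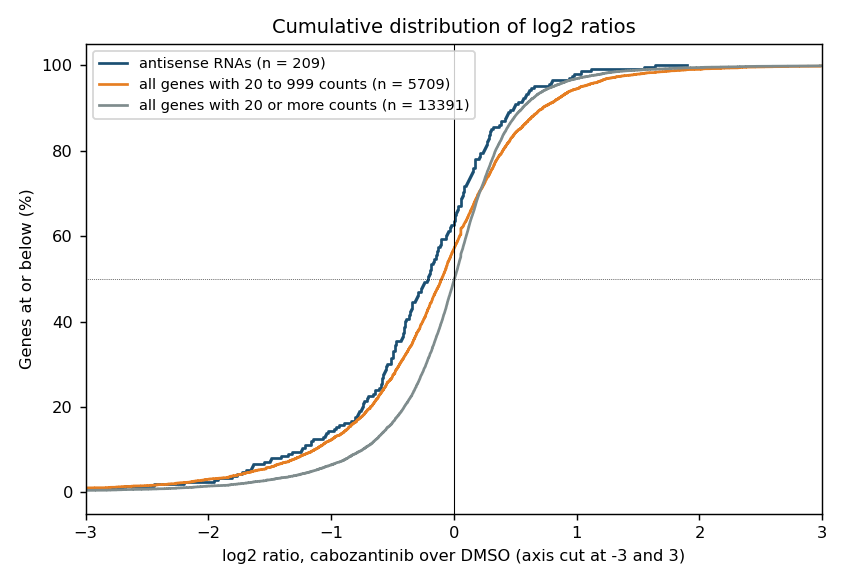
Cumulative share of genes (vertical axis, %) by log2 ratio of cabozantinib over DMSO (horizontal axis, from -3 to 3) for the 209 antisense RNAs, the 5709 genes with 20 to under 1000 counts and all 13391 genes with 20 counts or more. The antisense curve lies left of both others around the middle, crossing 50% at -0.21, against -0.10 and 0.00.

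The share of lower calls varied with abundance. Among 81 antisense RNAs with 20 to 99 counts, 15 were lower (18.5%) and 7 higher, beside 21.0% lower and 12.4% higher among all genes in that range. From 100 to under 1000 counts, 29 of 100 were lower (29%) and 5 higher, beside 19.6% lower and 9.89% higher. Of the 28 with 1000 counts or more, 4 were lower (14.3%) and 1 was higher, beside 6.51% lower and 5.98% higher. The share of lower calls was thus below that of all genes in the lowest range and above it in the 2 higher ranges. Other long non-coding RNAs, 366 in all, had a median log2 ratio of -0.19, with 8.74% higher and 23.0% lower. The 108 long intergenic RNAs named LINC had a median of -0.27, with 5.56% higher and 33.3% lower. Of the 17 SNHG genes, hosts of snoRNAs, 2 were higher and 0 lower.

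**Figure D2:**
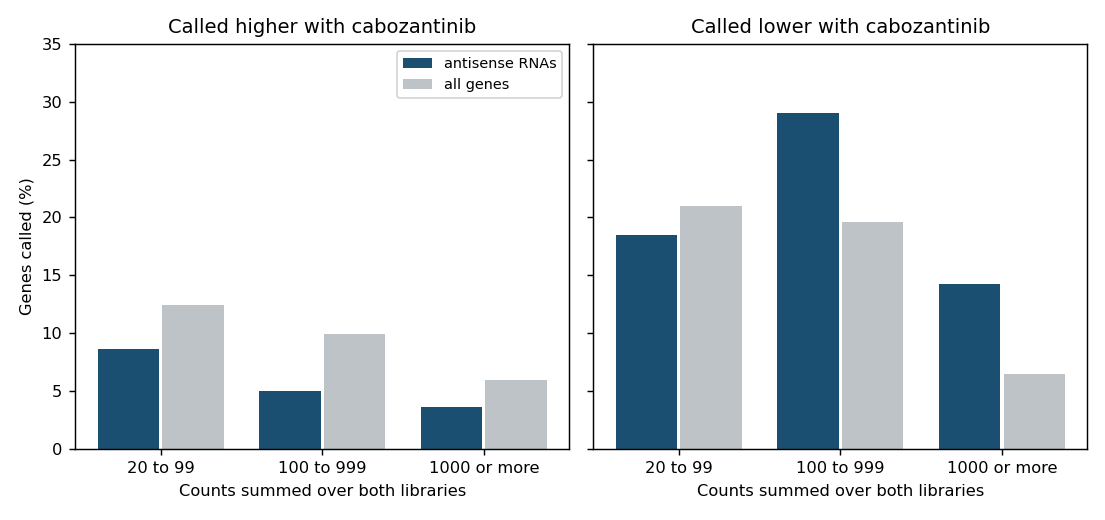
Share of genes called higher (left) and lower (right) with cabozantinib (%), by counts summed over both libraries, for antisense RNAs (dark bars) and all genes (grey bars). The bars differ most among lower calls in the middle range, 29% of antisense RNAs against 19.6% of all genes.

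Together the 209 held 0.242% of all counts with cabozantinib and 0.264% in DMSO. In CPM (counts for each 1e6 after scaling) that was 2497 with cabozantinib and 2561 in DMSO. That total leaned on LRRC75A-AS1, listed in RefSeq as SNHG29, a snoRNA host that alone gave 28.4% of it with cabozantinib and 23.9% in DMSO. LRRC75A-AS1 had 17586 counts with cabozantinib and 15792 in DMSO, a log2 ratio of 0.21, while its sense gene LRRC75A had 0 with cabozantinib and 1 in DMSO. Without it the sum was 1787 CPM with cabozantinib and 1949 CPM in DMSO.

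The largest difference was that of DLGAP1-AS2 (Entrez 84777), a single-exon RNA of 853 bases on hg19 chromosome 18 at 3603649 to 3604501, inside the span of DLGAP1, a gene for a scaffold protein of synapses. It had 43 counts with cabozantinib and 786 in DMSO, or 1.74 CPM with cabozantinib and 30.5 CPM in DMSO. That made it 17.4-fold lower (counting interval 12.9 to 24.5). DLGAP1-AS1, which starts upstream of it on the same strand at 3594112 and has 3 exons, was also lower, with 30 counts with cabozantinib and 92 in DMSO (2.92-fold, 1.93 to 4.61). DLGAP1 itself had 6 counts in each library. Neither antisense RNA shared an exon base with DLGAP1.

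TLR8-AS1, whose span overlaps that of the endosomal RNA sensor gene TLR8 on chromosome X, had 35 counts with cabozantinib and 236 in DMSO (6.40-fold lower, 4.53 to 9.53), and TLR8 had 0 in both, which allows up to 3 counts in each. F11-AS1, a 10-exon RNA on chromosome 4 opposite the coagulation factor XI gene, had 142 counts with cabozantinib and 348 in DMSO (2.35-fold lower, 1.93 to 2.88), with F11 at 0 in both. In all, 22 antisense RNAs had a sense gene under 20 counts, 12 of them at 0 in both libraries. Of the 22, 5 were lower and 0 higher, beside 23.0% lower among all 209, and their median log2 ratio was 0.11, against -0.24 for the 185 whose sense gene reached the floor. FGD5-AS1 had the most counts among those with a sense gene at 0 in both libraries, at 4264 counts with cabozantinib and 3319 in DMSO, a log2 ratio of 0.42 that stayed inside 1.5-fold. SLC9A3-AS1, opposite the gene for a sodium-proton exchanger that was at 0 in both, had 265 counts with cabozantinib and 184 in DMSO (log2 ratio 0.58, just inside 1.5-fold).

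SLC25A21-AS1, a single exon of 1769 bases on chromosome 14 at 37641231 to 37642999, had 63 counts with cabozantinib and 255 in DMSO, and was 3.87-fold lower (2.94 to 5.21). Its sense gene SLC25A21, for a mitochondrial oxodicarboxylate carrier, had 1444 counts with cabozantinib and 1185 in DMSO, a log2 ratio of 0.34. The starts of the pair lie 634 bases apart and they share 380 exon bases. ZNF252P-AS1 had 25 counts with cabozantinib and 87 in DMSO (3.30-fold lower, 2.12 to 5.45), and ZNF252P, a zinc finger pseudogene, 533 with cabozantinib and 567 in DMSO. ZSWIM8-AS1 had 48 with cabozantinib and 128 in DMSO (2.55-fold lower, 1.83 to 3.65), and ZSWIM8, for a ubiquitin ligase adaptor of microRNA decay, 1372 with cabozantinib and 1355 in DMSO; 63.2% of its exon bases are shared with opposite-strand genes. In these pairs the antisense RNA was lower and the sense gene was not called. DLG5-AS1 had only 4 counts with cabozantinib and 25 in DMSO (5.45-fold lower, 2.07 to 23.8), beside DLG5, a polarity scaffold, at 2093 with cabozantinib and 2251 in DMSO. PRKAR2A-AS1 had 8 with cabozantinib and 33 in DMSO (3.79-fold lower, 1.80 to 9.94), beside the protein kinase A subunit gene PRKAR2A at 1331 with cabozantinib and 1578 in DMSO. Both lie head to head with the sense gene, with starts 222 and 100 bases apart, and the wide intervals follow their low counts.

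**Figure D3:**
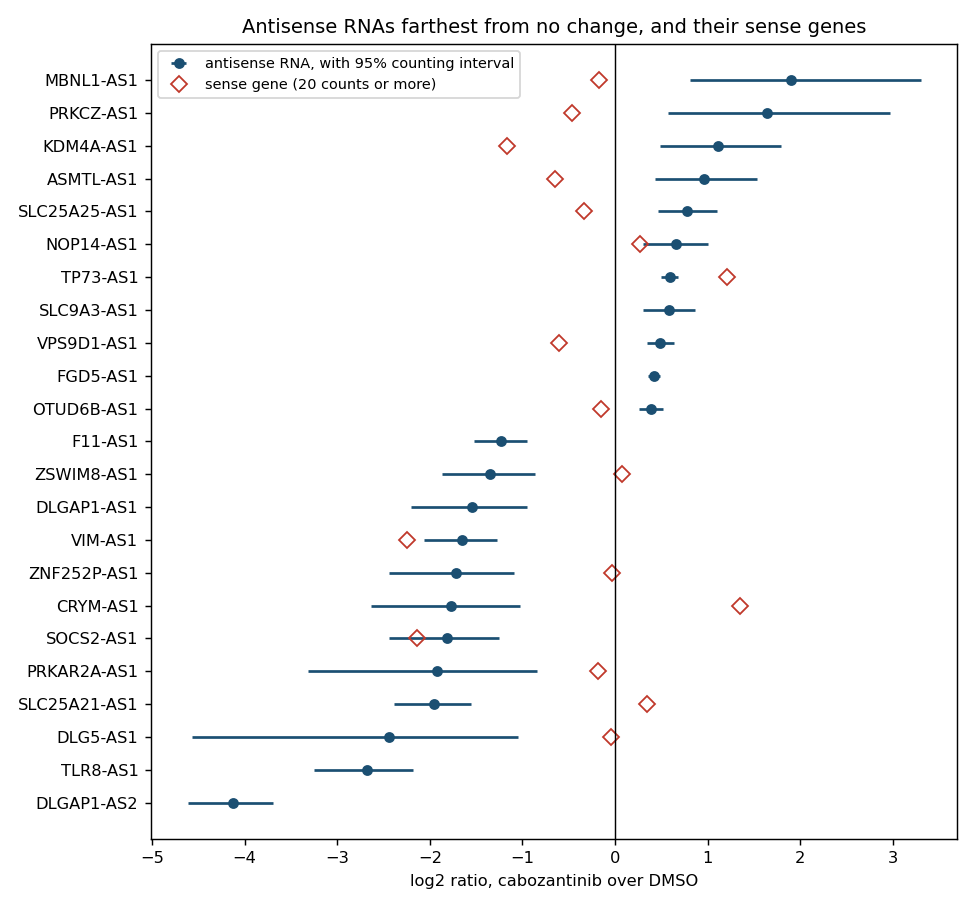
Log2 ratio of cabozantinib over DMSO for the 12 lower and 11 of the 12 higher antisense RNAs whose interval bound lies farthest from no change (filled points, with 95% counting intervals), and for their sense genes where these had 20 counts or more (open diamonds). DLGAP1-AS2 lies lowest at -4.12, and the diamonds of VIM-AS1 and SOCS2-AS1 are low together with the antisense RNA, while that of CRYM-AS1 lies on the other side of no change.

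Higher calls were fewer, 13 in all. MBNL1-AS1, opposite the gene for the splicing regulator muscleblind-like 1, had 30 counts with cabozantinib and 8 in DMSO (3.73-fold higher, 1.75 to 9.85), with MBNL1 at 7311 with cabozantinib and 8609 in DMSO. PRKCZ-AS1 had 28 with cabozantinib and 9 in DMSO (3.12-fold higher, 1.48 to 7.80), with PRKCZ, for an atypical protein kinase C, at 54 with cabozantinib and 78 in DMSO. Both rest on few counts. SLC25A25-AS1 had 221 counts with cabozantinib and 134 in DMSO (1.71-fold higher, 1.38 to 2.14), with SLC25A25, for a mitochondrial ATP-Mg/phosphate carrier, at 1400 with cabozantinib and 1834 in DMSO. NOP14-AS1 had 174 with cabozantinib and 115 in DMSO (1.57-fold higher, 1.24 to 2.01). The only higher member above 1000 counts was TP73-AS1, with 2455 counts with cabozantinib and 1696 in DMSO. Its 1.51-fold ratio (1.41 to 1.60) lies at the threshold (its log2 ratio of 0.59 was 0.51 to 0.58, and not called, under the other scalings), and RefSeq lists it as the transcribed pseudogene GFOD3P.

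Among the 10 most abundant antisense RNAs the ratios were small, with 1 called lower and 1 called higher, TP73-AS1 (1.51-fold). OIP5-AS1, a cytoplasmic RNA also called cyrano that binds a microRNA, had 2335 counts with cabozantinib and 2326 in DMSO. AFAP1-AS1 had 1301 with cabozantinib and 1106 in DMSO, PROSER2-AS1 1117 with cabozantinib and 1253 in DMSO, MRPL20-AS1 1074 with cabozantinib and 1062 in DMSO, ARRDC1-AS1 928 with cabozantinib and 1117 in DMSO, and OTUD6B-AS1 1051 with cabozantinib and 837 in DMSO. All 6 stayed inside 1.5-fold. THAP9-AS1 alone among the 10 was called lower, at 1452 counts with cabozantinib and 2274 in DMSO (1.51-fold, 1.41 to 1.61), beside THAP9, a gene derived from a transposase, at 250 with cabozantinib and 255 in DMSO.

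A list of 24 antisense RNAs, many of them studied in other cells, held 15 of the 209. The list was chosen with earlier results of these data known. Of the 15, 6 were lower and 0 higher, beside 12.3% lower among all genes at the floor and 23.0% among the 209. Besides DLGAP1-AS2, DLGAP1-AS1, THAP9-AS1 and VIM-AS1 these were ZEB1-AS1 (228 counts with cabozantinib and 414 in DMSO, 1.74-fold) and EPB41L4A-AS1 (512 with cabozantinib and 804 in DMSO, 1.51-fold), a snoRNA host. FOXD2-AS1, at 465 counts with cabozantinib and 725 in DMSO and a log2 ratio of -0.58, was just inside the threshold and was not called. MCM3AP-AS1 (474 with cabozantinib and 366 in DMSO), MAPKAPK5-AS1 (575 with cabozantinib and 737 in DMSO), TMPO-AS1 (345 with cabozantinib and 352 in DMSO), KIF9-AS1 (53 with cabozantinib and 77 in DMSO), TAPT1-AS1 (28 with cabozantinib and 35 in DMSO) and PRKCQ-AS1 (log2 ratio -0.35) were not called either.

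The pairs were then compared as pairs. A sense gene was matched for 207 antisense RNAs, and both genes reached 20 counts in 185 pairs with 184 different sense genes. The sense genes had a median of 2336 counts over both libraries. Per kb of exon, the antisense RNA had a median of 14.0% of the level of its sense gene with cabozantinib and 15.9% in DMSO. In 32 pairs the antisense RNA was the denser in both libraries, among them AFAP1-AS1 at 7.73 CPM per kb with cabozantinib and 6.32 in DMSO, against 0.0623 with cabozantinib and 0.135 in DMSO for AFAP1, an actin filament-associated protein gene. EPB41L4A-AS1 was at 17.3 CPM per kb with cabozantinib and 26.1 in DMSO, against 0.120 with cabozantinib and 0.0660 in DMSO for EPB41L4A.

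**Figure D4:**
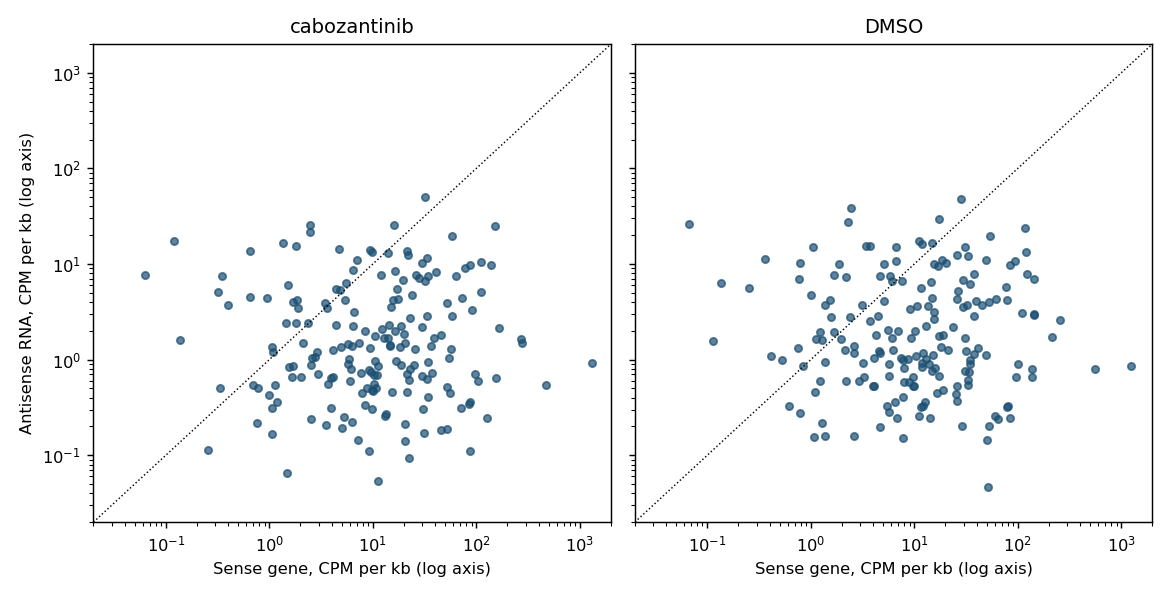
Level of the antisense RNA (vertical axis) against that of its sense gene (horizontal axis), both in CPM per kb of exon on log axes, with cabozantinib (left) and in DMSO (right), for 185 pairs. Each point is a pair and the dotted line marks equal levels; most points lie under it, with a median of 14.0% with cabozantinib and 15.9% in DMSO.

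Of the 184 sense genes, 27 were called lower (14.7%) and 11 higher (5.98%), and the median of their log2 ratios was -0.01. Among all genes at the floor 12.3% were lower and 8.01% higher. Among genes with 1000 counts or more, 6.51% were lower and 5.98% higher. The antisense and sense ratios were weakly related across pairs, with Pearson 0.19 and Spearman 0.12 over 185 pairs that share both libraries. Over the 103 pairs with 100 counts or more in both genes, Pearson was 0.26 and Spearman 0.14. Both ratios lay on the same side of no change in 100 of 185 pairs. Where the sense gene was called lower, its antisense RNA had a median log2 ratio of -0.47 (27 pairs), where it was called higher 0.18 (11 pairs), and where it was not called -0.25 (147 pairs).

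**Figure D5:**
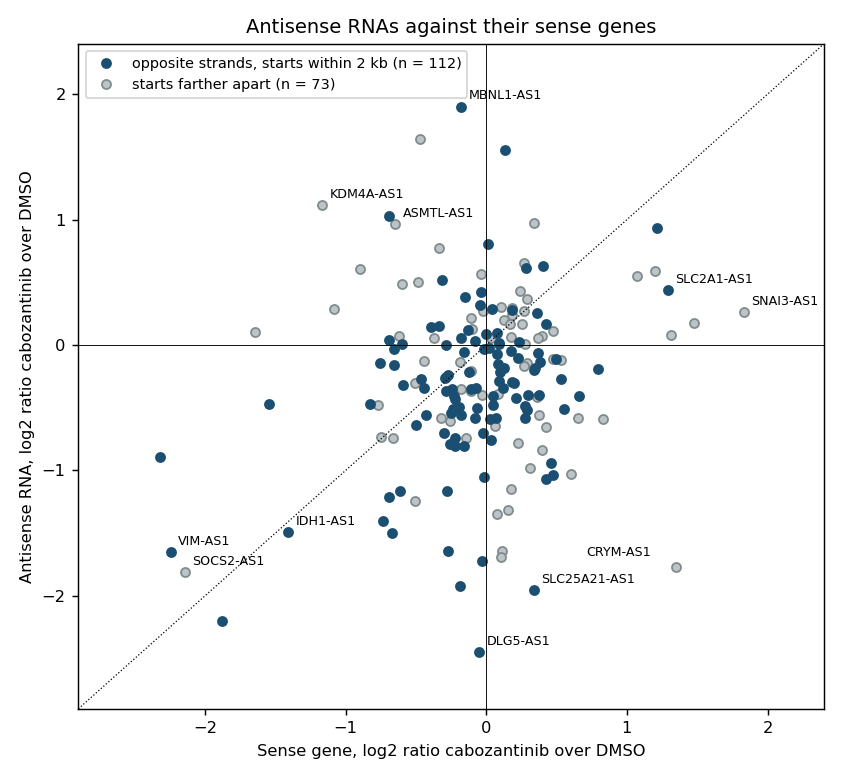
Log2 ratio of cabozantinib over DMSO of the antisense RNA (vertical axis) against that of its sense gene (horizontal axis) for 185 pairs, dark where the starts lie within 2 kb on opposite strands (n = 112) and grey otherwise (n = 73). The dotted line marks equal ratios; VIM-AS1, SOCS2-AS1 and IDH1-AS1 lie near it at low values, while KDM4A-AS1 and CRYM-AS1 lie in the opposite quadrants.

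In 9 pairs both genes were called lower, of 27 pairs with the sense gene lower. Among all 185 pairs 42 antisense RNAs were lower, and whether the calls of a pair go together was not tested. VIM-AS1 had 73 counts with cabozantinib and 240 in DMSO (log2 ratio -1.65), and VIM, which encodes the intermediate filament vimentin, 1592 with cabozantinib and 7843 in DMSO (-2.24). Their starts lie 1361 bases apart with no overlap. SOCS2-AS1 had 32 counts with cabozantinib and 118 in DMSO (-1.81), and SOCS2, a feedback inhibitor of cytokine signalling that STAT5 induces, 1354 with cabozantinib and 6208 in DMSO (-2.14). IDH1-AS1 had 12 with cabozantinib and 36 in DMSO (-1.49), and IDH1, the cytosolic isocitrate dehydrogenase gene, 3108 with cabozantinib and 8582 in DMSO (-1.41). For SOCS2 and IDH1 the interval of the ratio of ratios held 1, whereas VIM was lower than VIM-AS1 by a further factor that lay just inside 1.5-fold (counting interval 1.13 to 1.97). PCED1B-AS1 had 4 counts with cabozantinib and 21 in DMSO (-2.20) beside PCED1B at 76 with cabozantinib and 292 in DMSO (-1.88). NR2F2-AS1 had 16 with cabozantinib and 45 in DMSO (-1.41), beside NR2F2, an orphan nuclear receptor gene, at 1266 with cabozantinib and 2188 in DMSO (-0.73). EIF1B-AS1 (18 with cabozantinib and 44 in DMSO), PPP1R26-AS1 (73 with cabozantinib and 127 in DMSO), NUTM2A-AS1 (335 with cabozantinib and 579 in DMSO) and STXBP5-AS1 (16 with cabozantinib and 48 in DMSO) completed the 9; NUTM2A has near-identical relatives, so the counts of that pair are uncertain. Among these 9, STXBP5-AS1 was lower than its sense gene beyond the counting interval; STXBP5, for a syntaxin-binding protein, had 3281 with cabozantinib and 5426 in DMSO. Both genes were called higher in 2 pairs, of 11 with the sense gene higher, while 13 of all 185 antisense RNAs were higher. USP27X-AS1 had 50 counts with cabozantinib and 27 in DMSO (0.93), and USP27X, a deubiquitinase gene, 170 with cabozantinib and 76 in DMSO (1.21). TP73-AS1 was the other, its sense gene TP73, of the p53 family, having 140 counts with cabozantinib and 63 in DMSO (1.20).

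Calls in opposite directions were found in 6 pairs. In 4 of them the antisense RNA was higher and the sense gene lower, of 27 pairs with a lower sense gene. Among all 185 pairs 13 antisense RNAs were higher and 42 lower, and whether calls in a pair oppose each other was not tested. KDM4A-AS1 had 65 counts with cabozantinib and 31 in DMSO (log2 ratio 1.11), while KDM4A, for a histone demethylase of H3K9 and H3K36, had 1552 with cabozantinib and 3621 in DMSO (-1.17). ASMTL-AS1 had 83 with cabozantinib and 44 in DMSO (0.96) beside ASMTL at 413 with cabozantinib and 673 in DMSO (-0.65); both lie in a region shared by the sex chromosomes, so their counts are uncertain. H1FX-AS1 had 28 with cabozantinib and 14 in DMSO (1.03) beside the linker histone gene H1FX at 1930 with cabozantinib and 3246 in DMSO (-0.69), and IQCH-AS1 72 with cabozantinib and 49 in DMSO (0.61) beside IQCH at 39 with cabozantinib and 76 in DMSO (-0.90). All 4 share exon bases with the sense gene, where reads of the strands may not have been told apart. In the other 2, of 11 pairs with a higher sense gene, the antisense RNA was lower. CRYM-AS1, listed in RefSeq as the pseudogene ABCA15P, had 18 counts with cabozantinib and 65 in DMSO (-1.77), while CRYM, for the thyroid hormone-binding mu-crystallin, had 40 with cabozantinib and 16 in DMSO (1.35). TOB1-AS1 had 38 with cabozantinib and 81 in DMSO (-1.03), while TOB1, an antiproliferative deadenylation adaptor, had 478 with cabozantinib and 328 in DMSO (0.60). Neither pair shares exon bases.

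The ratio of the antisense ratio to the sense ratio needs no scaling and was given a counting interval for each pair. The antisense RNA was apart from its sense gene in 60 of 185 pairs, by at least 1.5-fold and with an exact 95% interval that left out 1. It was relatively higher in 16 (8.65%) and relatively lower in 44 (23.8%). As a background, 21.7% of 911 pairs of coding genes on opposite strands with starts within 2 kb were apart by the same rule, and 26.0% of the 423 of these whose rarer gene had under 1000 counts. This background was not split by direction, and it holds no pairs with starts farther apart, which the 60 include. Antisense pairs with starts within 2 kb were apart in 27 of 112 (24.1%). They were shallower, with a median of 104.5 counts for the rarer gene, against 1114 in the 911 coding pairs and 353 in the 423. The median absolute difference of the log2 ratios was 0.48 in the antisense pairs, against 0.31 and 0.39. Fewer counts widen both the intervals and this spread, and whether the sets differ was not tested. The 112 antisense pairs had a Pearson correlation of 0.34 and a Spearman correlation of 0.24. Those of the 911 coding pairs were 0.15 and 0.13, from the same 2 libraries and at unlike depth. Among the relatively lower, TRAM2-AS1 had 92 counts with cabozantinib and 197 in DMSO beside the translocation-associated TRAM2 at 1091 with cabozantinib and 816 in DMSO, 2.86-fold apart (2.18 to 3.77). URB1-AS1 had 172 with cabozantinib and 343 in DMSO beside the ribosome biogenesis gene URB1 at 4409 with cabozantinib and 3338 in DMSO, 2.63-fold apart (2.17 to 3.20). Both lie head to head with the sense gene, 31 and 130 bases from its start. SLC25A21-AS1 was 4.93-fold apart (3.69 to 6.67) and CRYM-AS1 8.85-fold (3.88 to 21.3). Among the relatively higher was PAX8-AS1, with 342 counts with cabozantinib and 331 in DMSO, beside the paired-box factor gene PAX8 at 32 with cabozantinib and 105 in DMSO, 3.39-fold apart.

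Sense genes could also be called while the antisense RNA was not, in 7 of 11 pairs with a higher and 14 of 27 with a lower sense gene. The antisense RNA was likewise not called in 109 of the 147 pairs whose sense gene was not called. Low antisense counts can leave a gene without a call. SLC2A1, for the glucose transporter GLUT1, had 10085 counts with cabozantinib and 4280 in DMSO (log2 ratio 1.29), and SLC2A1-AS1 141 with cabozantinib and 108 in DMSO (0.44). SNAI3, a zinc finger repressor gene, had 186 with cabozantinib and 54 in DMSO (1.83), and SNAI3-AS1 163 with cabozantinib and 141 in DMSO (0.27). TBC1D8 had 26 with cabozantinib and 137 in DMSO (-2.32), and TBC1D8-AS1 7 with cabozantinib and 14 in DMSO (-0.89, counting interval -2.49 to 0.46).

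By position, the 113 antisense RNAs whose start lies within 2 kb of that of the sense gene on the opposite strand had a median log2 ratio of -0.32, with 24 lower and 6 higher. The 94 with starts farther apart had a median of 0.06, with 23 lower and 7 higher, so lower calls were no rarer among them. Without TMM factors the medians of the nearer and farther RNAs were -0.40 and -0.03. The groups differed in depth, with median counts of 113 and 182 over both libraries. By arrangement, the median was -0.27 for the 63 head-to-head RNAs (12 lower, 3 higher) and -0.14 for the 97 that share exon bases (21 lower, 6 higher). It was -0.14 for the 29 with overlapping spans only (8 lower, 2 higher), a value that moved to -0.40 at a floor of 50 counts and -0.49 at a floor of 100, and -0.33 for the 18 others on the opposite strand (6 lower, 2 higher). RefSeq now names 16 of the 209 as divergent transcripts (-DT), 14 of them head-to-head, and 1 of the 16 was lower and 1 higher. Beside all these groups stand 12.3% lower and 8.01% higher among all genes at the floor, and 23.0% and 6.22% among the 209.

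The 19 genes of nuclear RNA decay in the list used here gave 0 higher and 0 lower calls. They were the exosome genes EXOSC1 to EXOSC10, the nuclease DIS3, the helicase MTR4 (listed as SKIV2L2), RBM7, ZCCHC8, ZFC3H1, PABPN1, XRN2, C1D and MPHOSPH6. Their median log2 ratio was 0.06 (-0.02 without TMM factors), with EXOSC5 lowest at -0.47 (666 counts with cabozantinib and 957 in DMSO) and EXOSC3 highest at 0.40 (2090 with cabozantinib and 1643 in DMSO). Among all genes with 1000 counts or more, the range of most of the 19, 5.98% were called higher and 6.51% lower. At these shares few calls would fall on 19 genes, and the part of RNA decay in the results was not tested.

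In the authors' deposited table, 11 of the 209 had a posterior of 0.95 or more for differential expression (5.26%). The share among all genes at the floor was near this, at 5.83%. All 11 were lower with cabozantinib, but the share of all genes was not split by direction. They were DLGAP1-AS2, SLC25A21-AS1, TLR8-AS1, VIM-AS1, SOCS2-AS1, F11-AS1, ZNF252P-AS1, DLGAP1-AS1, CRYM-AS1, ZSWIM8-AS1 and MAP3K14-AS1.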

How the data were processed

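RNA of K562 cells was sequenced from 1 library per group. The deposited count files give raw whole-number counts for each Entrez gene. Alignment was with Rsubread on hg19, per the file headers; the submitters' processing notes also give the same assembly as GRCh37. How the counting treated strand and reads with several alignments, and whether poly(A) RNA was selected, was not given in the sources used here. The authors' deposited table gives symbols, a posterior probability used here as a score, and a shrunken fold ratio. Values in 4 of its columns have no sample label and were not used.

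TMM factors from edgeR 4.0.16 (R 4.3.3) were 0.971 for cabozantinib and 1.03 for DMSO. Log2 ratios used counts plus 0.5, and CPM the scaled totals. Exact (Clopper-Pearson) 95% intervals of count ratios and exact intervals of the ratio of ratios came from scipy 1.17.1. The intervals of count ratios were tested on counts simulated with counting error alone. Those of the ratio of ratios were not tested. Start distances, exons and overlaps were read from the deposited annotation; gene types and promoter windows came from RefSeq by gene ID, with no conversion between builds. Sense genes were matched by symbol (195) or through RefSeq names (12).

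Members, lists and comparisons were chosen with earlier results of these data known. Named genes are the 12 each way whose interval bound lay farthest from no change, the 10 most abundant, the 6 pairs each way farthest apart, 15 members of a list of 24 and those nearest the floor; 1 of them is not reported here. Others, such as pairs called in both genes, were named after their values were seen. Alternatives covered the scaling (library totals, DESeq2 1.42.0 size factors, upper quartile), floors of 50 and 100 counts, a pseudocount of 2, a 2-fold threshold, the deposited ratio and leaving out members with shared exon bases.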

Additional observations from a re-analysis of the deposited data

How the results depend on the processing

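Of 327 values recomputed under the alternatives for 61 results, 310 were counted as kept and 17 as moved. Kept meant within 1.5 times for a count, within the counting interval for a gene and within a fixed tolerance for a correlation. A median was kept if it lay in the counting interval of the single gene at the median, which is not the error of a median. No called value changed sign, but 6 values near 0 did: with library totals and no TMM factor MRPL20-AS1 had a log2 ratio of -0.01, TMPO-AS1 -0.06 and OIP5-AS1 -0.02, and the median of the RNA decay genes was -0.02; the sense gene median was 0.03 at a floor of 50 counts and 0.01 at a floor of 100. With library totals and no TMM factor, 8 antisense RNAs were higher, and FGD5-AS1 and LRRC75A-AS1 moved to log2 ratios of 0.33 and 0.13, as did OIP5-AS1 to that above. With a floor of 100 counts, which leaves 128 antisense RNAs, 6 were higher and 15 sense genes were lower. At 2-fold, 5 antisense RNAs were higher and 26 lower, 9 sense genes were lower, and 10 pairs had the antisense RNA relatively higher and 25 relatively lower. Without the members that share exon bases with an opposite-strand gene, which leaves 107, 6 were higher and 25 lower. In this smaller set 6 sense genes were higher and 10 lower, and 6 pairs were relatively higher and 22 relatively lower. Such counts fall when fewer genes are left, even where the share is kept. Among all genes without such shared bases 12.3% were lower. The median of the antisense RNAs ranged from -0.29 to -0.19 over all alternatives, and that of the sense genes from -0.09 to 0.03. The median of the RNAs with overlapping spans only was -0.40 at a floor of 50 counts and -0.49 at a floor of 100. Over the other scalings 51 to 56 antisense RNAs were lower and 8 to 12 higher. Without TMM factors the median of all genes was -0.08. No paired analysis was possible because each group holds 1 library.

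With 1 library per group, differences between cultures or library preparations cannot be told apart from the treatment. Counts below 100, which 81 of the 209 had, give wide intervals. Levels per kb rest on the annotated exons.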

Other observations

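Antisense RNAs opposite zinc finger genes (symbols in ZNF, ZSCAN, ZBTB or ZBED, grouped after their values were seen) numbered 11, of which 2 were lower and 0 higher, with log2 ratios from -1.72 to 0.14. Among all antisense RNAs at the floor 23.0% were lower and 6.22% higher, and among all genes at the floor 12.3% and 8.01%. By chromosome, the most lower calls fell on chromosome 10, picked out after the values were seen, with 7 of 15 antisense RNAs lower and 0 higher, beside 65 of all 515 genes on it lower (12.6%). Of the 31 single-exon RNAs 8 were lower and 1 was higher, and of the 178 with several exons 40 and 12. Beside these stand the same shares of all antisense RNAs, 23.0% lower and 6.22% higher. Whether the zinc finger or exon groups differ from the other antisense RNAs was not tested.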
